A study of Mus musculus with 8 samples.

Results

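Gene expression after transfection of miR-125b was compared with that after a control duplex in 70Z/3, a mouse line of leukaemic pre-B lymphoblasts. The members are the 4 arrays of 70Z/3 among the 8 arrays of the series, chosen by their titles: miR-Neg replicates 1 and 2 and miR-125b replicates 1 and 2. Both groups received a synthetic duplex at 10 nM with a lipid reagent, pre-miR-125b in one and the control duplex miR-Neg in the other. Medium was replaced at 8 h and RNA was harvested at 48 h. The replicate numbers come from 2 independent experiments, and every difference below is miR-125b minus miR-Neg within a replicate number (pair 1 and pair 2). Unless stated otherwise, the SE and p-values come from a fit to all 8 arrays that leaves this pairing out. The 4 remaining arrays hold '18-81', an Abelson virus-transformed pre-B line treated in the same way. They enter only as a comparison and in the spread that this fit estimates. The results are those of 1 cultured line, and the control cells too carry lipid and a duplex, since no untransfected cells were analysed here. Values are the scanner's processed intensity on a log2 scale, minus the 75th percentile of the same array, so that 0 stands for that percentile.

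MicroRNAs are short RNAs that guide an Argonaute protein to messenger RNAs, mostly through pairing of their bases 2 to 8, the seed, with sites in the 3′ untranslated region. The bound messenger is then translated less and degraded faster, so that direct targets tend to have lower levels. The miR-125 family is known in the blood system for its activity in stem cells and for its link with leukaemia, including B-cell leukaemia in mice. The mouse has 2 genes for the same mature miR-125b, and miR-125a shares its seed. The mature sequences are shown because the seed defines the sites searched for below, with the seed in capitals. They come from RefSeq on GRCm38.p6, where miR-125b lies at chr9:41581940-41581961 and chr16:77646279-77646300 and miR-125a at chr17:17830817-17830840, all on the plus strand. The sources used here do not give the letters of the duplex itself, and the arrays do not measure the mature RNA.
miR-125b: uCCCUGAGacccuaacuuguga
miR-125a: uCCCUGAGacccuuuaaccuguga

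The array of miR-Neg replicate 2 stood apart from the other 3 arrays of 70Z/3, and both miR-Neg arrays were dimmer than their miR-125b partners. The 75th percentile was 512.8 against 701.5 in pair 1 and 337.7 against 504.0 in pair 2, and 38.0% of the probes of miR-Neg replicate 2 were well above background, against 42.3 to 45.1% on the others. The E1A spike-ins, RNAs added in fixed amounts at labelling, went the other way: the geometric mean of 6 spike-in probes was 7788 and 8751 in miR-Neg and 3544 and 5001 in miR-125b. Relative to the spike-ins, the 75th percentile was 3.01-fold (pair 1) and 2.61-fold (pair 2) higher with miR-125b, against 1.11-fold and 0.578-fold in the '18-81' pairs. Scaling to the 75th percentile removes any such common difference, so every value below is relative to the other genes of the same array, and array brightness and duplex cannot be told apart. Replicate spots of a probe differed by a median SD of 0.060 to 0.068 on the log2 scale on all 8 arrays, miR-Neg replicate 2 included (0.064). Of 15573 genes well above background on all 4 arrays, miR-Neg replicate 2 lay 1 log2 unit or more outside the range of the other 3 arrays for 652 genes above and 344 below, together 6.40%. The same count was 0.167% for miR-Neg replicate 1, 0.392% for miR-125b replicate 1 and 0.437% for miR-125b replicate 2.

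**Figure D1:**
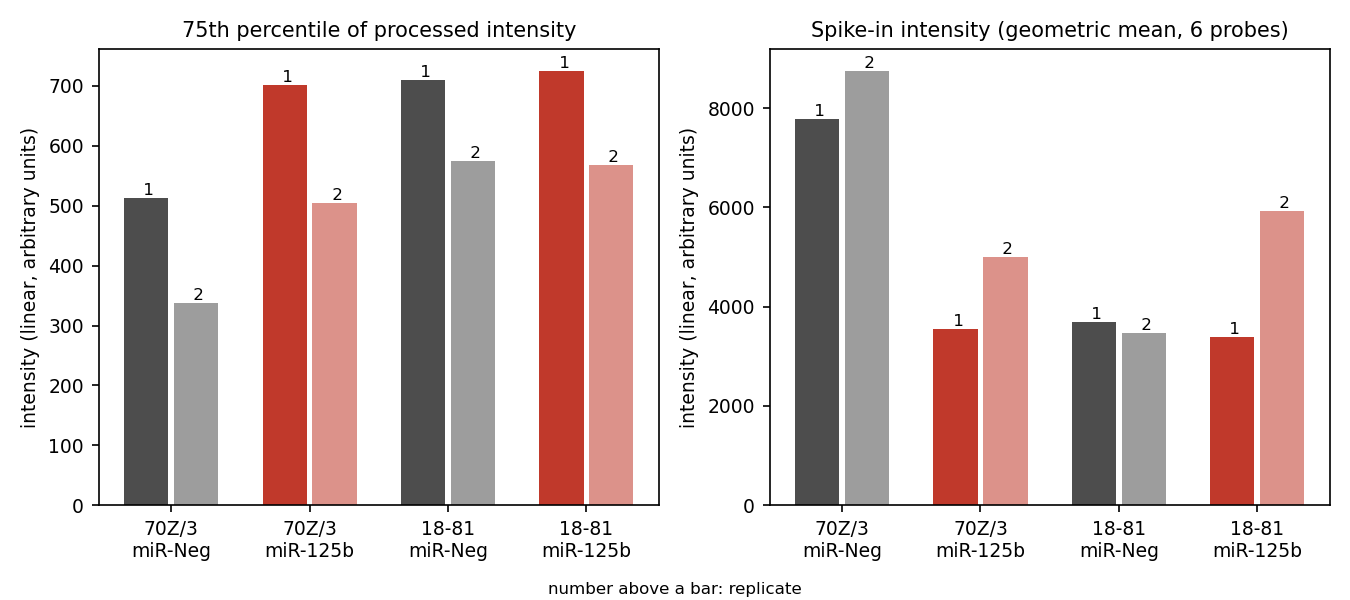
Brightness of the 8 arrays. Bars give the 75th percentile of the processed intensity (left) and the geometric mean of 6 E1A spike-in probes (right), both on a linear scale from 0, for each group and replicate (number above the bar, grey for miR-Neg and red for miR-125b). The 70Z/3 miR-Neg arrays have the lowest percentile of their replicate number and the highest spike-in signals, 7788 and 8751.

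Across 18772 tested genes no gene passed an adjusted p of 0.05 (limma with Benjamini-Hochberg adjustment, smallest adjusted p = 0.121; 0%). At an unadjusted p of 0.05 there were 1104 genes (5.88%), of which 524 were higher after miR-125b (2.79%) and 580 lower (3.09%). The share of higher genes among these calls depended on the scaling: 736 higher and 631 lower after quantile normalization, 778 and 548 after cyclic loess, and 763 and 612 in the authors' series table. The median of all genes was at −0.13 (−0.08 in pair 1 and −0.20 in pair 2) with the 75th percentile, and at −0.01 and 0.01 after quantile normalization and cyclic loess. With the replicate number as a block in a fit of only the 4 arrays of 70Z/3, 212 genes passed, 105 of them lower (0.559%) and the rest higher (0.57%). That fit has 1 residual degree of freedom per gene and leans on 11.1 prior degrees of freedom shared over genes. With the block over all 8 arrays none passed at the adjusted threshold and 3920 had an unadjusted p under 0.05, and with a block within each line Sparc alone passed.

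The replicate pairs differed in spread and agreed only in part in direction, with 66.6% of genes on the same side of the all-gene median in both. Differences had a standard deviation of 0.48 in pair 1 and 0.80 in pair 2, and they correlated at r = 0.41 across genes, which are not independent replicates. In pair 1, 310 genes were at least 2-fold higher and 434 at least 2-fold lower, and in pair 2, with the dim control array, 1624 and 1471. Of these, 136 were 2-fold higher in both pairs (0.724%) and 172 were 2-fold lower in both (0.916%), which is 41.4% of the 2-fold genes of pair 1 and 9.95% of those of pair 2, while 36 went opposite ways. In '18-81' the same counts were 39 (0.208%) and 58 (0.309%). Of the 136 higher genes 44 were above background on all 4 arrays, and of the 172 lower genes 116. Among the 3755 dimmest genes were 84 of the 136 and 64 of the 172, and among the 3755 brightest 0 and 23. The near balance of the directions therefore rests on dim genes. For 2805 genes both miR-125b arrays lay above both miR-Neg arrays (14.9%), and for 4272 both lay below (22.8%). With 2 arrays per group such separation is frequent even without a difference. The counts also include the all-gene median of −0.13 under this scaling, which was −0.01 and 0.01 after quantile normalization and cyclic loess.

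**Figure D2:**
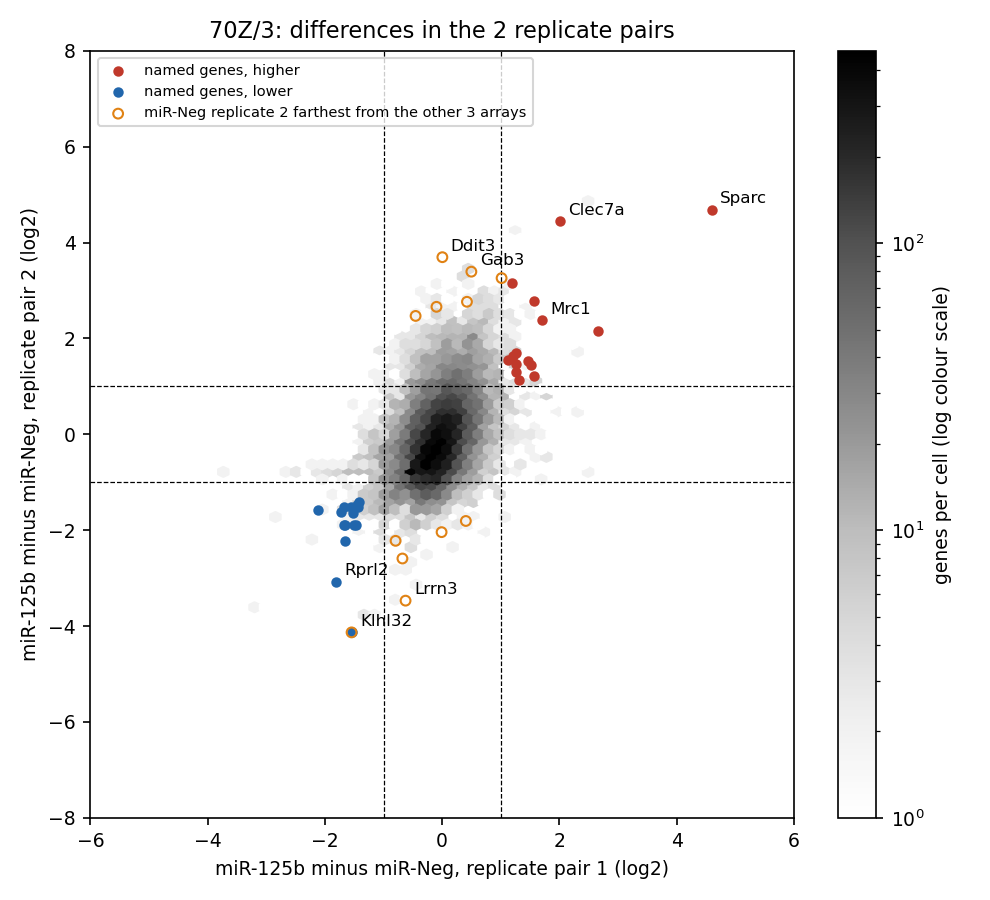
Difference between miR-125b and miR-Neg in pair 1 (x axis) and pair 2 (y axis), log2, for 18772 genes as grey hexagons shaded by the number of genes on a log colour scale. Red and blue points are the 15 named genes per direction and open orange circles the genes on which miR-Neg replicate 2 lay farthest from the other 3 arrays. Dashed lines mark 2-fold. The cloud is taller than wide, with SD 0.80 in pair 2 and 0.48 in pair 1, and Sparc stands alone at 4.60 and 4.68.

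Outside the interferon genes, Sparc had the largest difference common to both pairs among genes above background on all 4 arrays. Sparc, a secreted glycoprotein that binds collagen and shapes cell-matrix contacts, was at −0.35 and 0.69 in miR-Neg and at 4.25 and 5.38 in miR-125b. Both miR-125b arrays therefore lay over 3 log2 units above both controls, by a mean of 4.64 ± 0.49 (SE), or 25.0-fold (unadjusted p = 1.51e-05, limma adjusted p = 0.141; adjusted p = 1.78e-05 in the 4-array fit with the replicate block). A second Sparc probe was at −0.36 and 0.39 in miR-125b and not well above background in miR-Neg. The brighter probe lies at chr11:55208939-55208998 (mm9), and in '18-81' the differences were 0.15 and 0.31.

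Among receptors, the mannose receptor Mrc1 was at −0.98 and −1.38 in miR-Neg and at 0.72 and 1.00 in miR-125b, a difference of 2.04 ± 0.28 (unadjusted p = 8.86e-05, limma). The 2 arrays of each group were close to each other and the groups did not overlap, and the '18-81' pairs were at 0.10 and 0.01. Clec7a (dectin-1), the receptor for fungal glucans, was at −0.41 and −1.77 in miR-Neg and at 1.59 and 2.67 in miR-125b (3.22 ± 0.76). Clec1b (CLEC-2), a platelet and myeloid lectin, was at −0.45 and −0.01 against 1.11 and 2.77 (2.17 ± 1.02). In '18-81', Clec7a differed by 2.58 in pair 1 and −0.04 in pair 2, and Clec1b by 3.87 and −0.01, so that the pairs of '18-81' were far apart. Il27ra, a subunit of the interleukin-27 receptor, differed by 1.27 and 1.31 in the pairs of 70Z/3.

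Several named genes encode signalling and adaptor proteins. Sla2, an adaptor that dampens antigen receptor signals, was at −3.06 and −3.03 in miR-Neg and at −0.40 and −0.88 in miR-125b (2.40 ± 0.70). Another Sla2 probe gave −0.11 (0.01 and −0.24 in the pairs). That probe was not well above background in miR-Neg and on 1 of the 2 miR-125b arrays, so the difference of Sla2 rests on 1 probe. Cass4, a scaffold of focal adhesions, was at 1.22 ± 0.36 with a second probe at −0.11. The probes of Cass4 disagree and its direction is uncertain. The docking protein Dok4 was at 1.48 ± 0.62, the Rab exchange factor Denn2b at 1.42 ± 0.44 and Rapgefl1, related to exchange factors of the GTPase Rap, at 1.36 ± 0.27. Tgtp2, a GTPase that interferon induces and that the interferon list does not hold, was at 1.51 and −0.80 in miR-Neg and at 2.70 and 2.37 in miR-125b. Its control arrays differed from each other by more than pair 1 did (1.19, against 3.17 in pair 2).

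Mpeg1, the pore-forming protein perforin-2 of phagocytes, was at 0.53 and 0.14 in miR-Neg and at 2.00 and 1.67 in miR-125b (1.50 ± 0.42). It also differed by 0.86 and 0.84 in the '18-81' pairs, and the difference between the lines had an unadjusted p = 0.303 (limma). The homeobox gene Rhox5, normally active in the reproductive tract, was at −2.002 and −2.04 against −0.74 and −0.36, with almost equal control arrays (1.48 ± 0.28). The remaining named genes were Fndc3a (1.38 ± 0.32), a protein with fibronectin repeats, and the zinc finger repressor Zbtb20 (1.34 ± 0.42). Of the 15 named higher genes 11 passed in the 4-array fit with the replicate block, and Cass4, Il27ra, Rapgefl1 and Zbtb20 missed it (adjusted p = 0.0673, 0.0594, 0.051 and 0.0555, limma). These genes were chosen by the pair differences that this fit tests, so passing it is no separate support.

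The 15 named lower genes included 5 histone genes and 2 small RNAs. Rprl2, an RNA related to the catalytic RNA of ribonuclease P, was at 2.47 and 3.32 in miR-Neg and at 0.66 and 0.25 in miR-125b (−2.44 ± 0.37, unadjusted p = 0.000189, limma). Rnu2-10, a copy of the U2 splicing RNA with many near-identical relatives, was at 1.77 and 3.22 against −0.36 and 1.63. Its groups did not overlap, but the gap between miR-Neg replicate 1 and miR-125b replicate 2 was small beside the spread within each group. Klhl32, a kelch protein, was at 3.57 and 5.72 in miR-Neg and at 2.03 and 1.59 in miR-125b (−2.84 ± 0.66), with the dim array 2.14 log2 units above the nearest of the other arrays.

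Abtb1, a protein with ankyrin repeats reported as a miR-125b target, was at 3.90 and 4.38 in miR-Neg and at 2.22 and 2.48 in miR-125b (−1.78 ± 0.30). Myl4, a myosin light chain of atrial and embryonic muscle, was at 2.26 and 2.19 against 0.54 and 0.58, with the arrays of each group close together (−1.67 ± 0.29). Both genes were near 0 in '18-81' (0.12 and −0.11 for Abtb1, −0.13 and 0.23 for Myl4). Tle5, a short corepressor of the Groucho family, was at 6.18 and 7.35 against 4.53 and 5.46 (−1.77 ± 0.51), but a second probe gave −0.32. Csf1r, the receptor for the macrophage growth factor, was at 0.93 and 1.58 against −0.48 and 0.17, and of its 2 other probes one was not well above background on the 4 arrays and one gave 0.07. For Tle5 and Csf1r the detected probes disagree and the direction is uncertain.

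Atg4d, a protease that trims the autophagy protein LC3 and its relatives, was at 4.98 and 6.09 in miR-Neg and at 3.51 and 4.20 in miR-125b (−1.68 ± 0.46). In '18-81' its differences were −1.36 and −0.62, so all 4 pairs of the series lay on the same side. Mreg, a protein of melanosome transport, was at −1.53 ± 0.43 and the tyrosine phosphatase Ptpn18 at −1.48 ± 0.45. All 15 named lower genes passed in the 4-array fit with the replicate block, and they too were chosen by the pair differences it tests. The dim array was the higher of the 2 controls in all named lower genes but Myl4, in Ptpn18 at 8.95 against 8.09, while in most of the named higher genes it was the lower one.

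**Figure D3:**
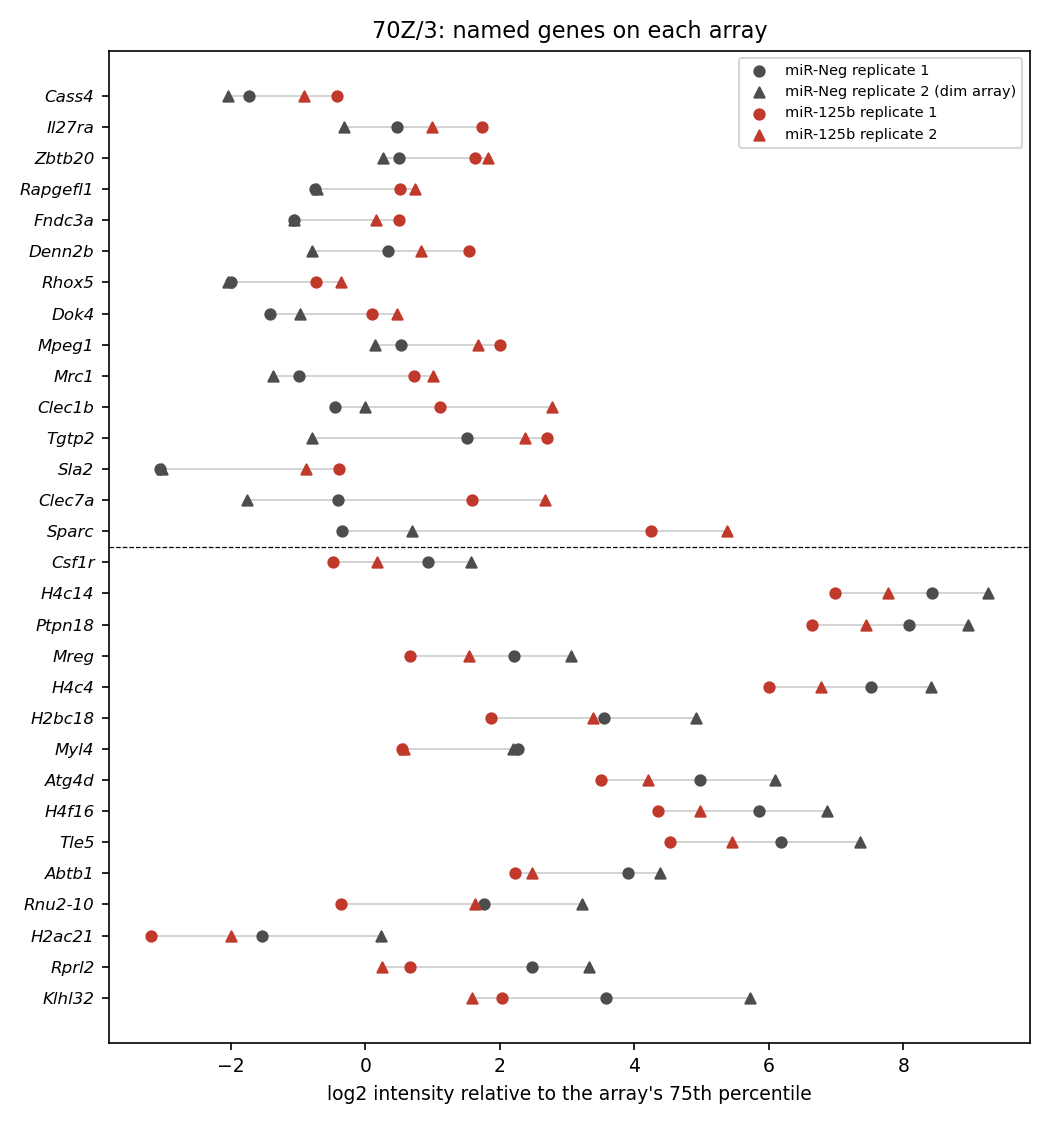
Level of the 15 named genes per direction on each array of 70Z/3, as log2 intensity relative to the 75th percentile of the array. Grey is miR-Neg and red miR-125b, circles are replicate 1 and triangles replicate 2. Genes above the dashed line were higher and genes below it lower after miR-125b, and in each row the grey and red points do not overlap.

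Several genes were well above background in only one of the groups. Their folds were taken against the lowest level well above background, or against the undetected value itself where that was higher. Of 18772 tested genes, 406 were detected on both miR-125b arrays and on neither miR-Neg array, and 18 the other way round. Both miR-Neg arrays had fewer probes well above background than their partners (42.3% against 45.1% in pair 1, 38.0% against 42.6% in pair 2). This imbalance cannot be told apart from array brightness. Detection differed between the control arrays: 1197 genes were undetected on miR-Neg replicate 2 only, against 71 on miR-Neg replicate 1 only. Wfdc17, a small secreted protein of activated macrophages, was at −3.53 and −0.52 in miR-125b and not well above background in miR-Neg (at least 4.67-fold higher). The collagenase Mmp13 was at −2.35 and −3.47 (at least 2.53-fold higher, unadjusted p = 0.000174, limma). The inhibitory leukocyte receptor Lilrb4a was at least 2.91-fold higher, the neuronal adhesion gene Lrrtm1 at least 2.72-fold, Gm3336 at least 2.5-fold and the Rab11 effector Rab11fip5 at least 2.47-fold. Wscd2 (at least 4.06-fold) and the odorant receptor Olfr18 (3.67-fold by its measured values) rested on pair 1. In pair 2 miR-125b was level with the undetected control.

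In the other direction, Cplx3, a regulator of synaptic vesicle release, was at −3.06 and −0.87 in miR-Neg and not well above background in miR-125b, at least 6.83-fold lower. The lectin-like gene Clec2f was at least 3.62-fold lower and the calcium-binding protein Pvalb at least 3.37-fold. The protease genes Ctsw and Prss57 were at least 2.78-fold and 2.22-fold lower, and the mitochondrial carrier gene Slc25a53 at least 2.19-fold. The antibody segment Ighv8-8 was at least 2.25-fold lower, and Mup2 was 2.32-fold lower by its measured values. Mup2 and Ighv8-8 belong to families of near-identical copies and are uncertain. The smallest p-value of the comparison was that of an unnamed intergenic transcript with its probe at chr9:58303477-58303536 (mm9). It was at −2.64 and −2.83 in miR-Neg and not well above background in miR-125b, at least 4.01-fold lower (unadjusted p = 6.43e-06, limma adjusted p = 0.121), with 0.06 and −0.02 in the '18-81' pairs. A second intergenic transcript with its probe at chr4:3746654-3746713 was at least 2.87-fold lower (limma adjusted p = 0.169).

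The experiment was designed to find targets of miR-125b, and the letters of the array's probes allowed a narrow search for its seed matches. A seed match is the letters CTCAGGG on the strand of the transcript, and 99.5% of 10060 probes with a known gene strand lie on that strand. Each probe is 60 bases long and most of a transcript lies outside it, so a gene without a match here may hold one elsewhere. Whether a match lies in the coding or the untranslated part was not determined. Of the 18772 tested probes 83 hold the match (0.442%). The windows below show the match in capitals for the 4 genes with the most negative differences among genes with a RefSeq symbol that were well above background on all 4 arrays, a choice made after their values were seen. They lie at chr5:77342661-77342685 (minus strand, Ppat), chr1:34530599-34530620 (plus strand, Ptpn18), chr5:115690933-115690962 (plus strand, Pop5) and chr9:107442082-107442111 (minus strand, Cyb561d2), in mm9.
Ppat: acacagaaaCTCAGGGaaggttcta
Ptpn18: caaaataaaagtttCTCAGGGc
Pop5: atgtaactgcttagCTCAGGGgtggaataa
Cyb561d2: cagggactagggcaCTCAGGGgtagatctc

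Genes with the match had a longer lower tail than all genes, while their median was close to that of all genes. Their median lay −0.04 from the median of all genes (−0.13 and −0.07 in the pairs), with 44 of 83 below it. At an unadjusted p of 0.05, 13 of the 83 were lower (15.7%, against 3.09% of all genes) and 1 was higher (1.20%, against 2.79%). A difference of more than 0.5 log2 units below the median of all genes was found for 21 of them (25.3%), against 10.5% of all genes, and one above it for 14 (16.9%), against 16.6%. In both pairs 37 were below the median (44.6%, against 33.3% of all genes). The 106 probes with the reverse letters CCCTGAG, a search of the opposite strand, had 1 lower and 2 higher gene at the unadjusted threshold, and 8.49% of them were more than 0.5 below.

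The excess below 0.5 was smaller without the dim array but stayed above that of all genes: 18.1% against 7.18% without miR-Neg replicate 2, and 21.7% against 9.97% without miR-125b replicate 1. The count at the unadjusted p was 1 of 83 without miR-Neg replicate 2 (all genes 1.20%) and to 0 without miR-125b replicate 1 (all genes 1.13%). In '18-81' none of the 83 had an unadjusted p under 0.05 in either direction, where 115 genes of all were lower and 113 higher, and 6.02% lay more than 0.5 below the median against 3.93% of all genes. The difference between the lines was not tested for this set. The 23 probes with the longer match CTCAGGGA had a median of −0.32 (−0.27 and −0.28 in the pairs).

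**Figure D4:**
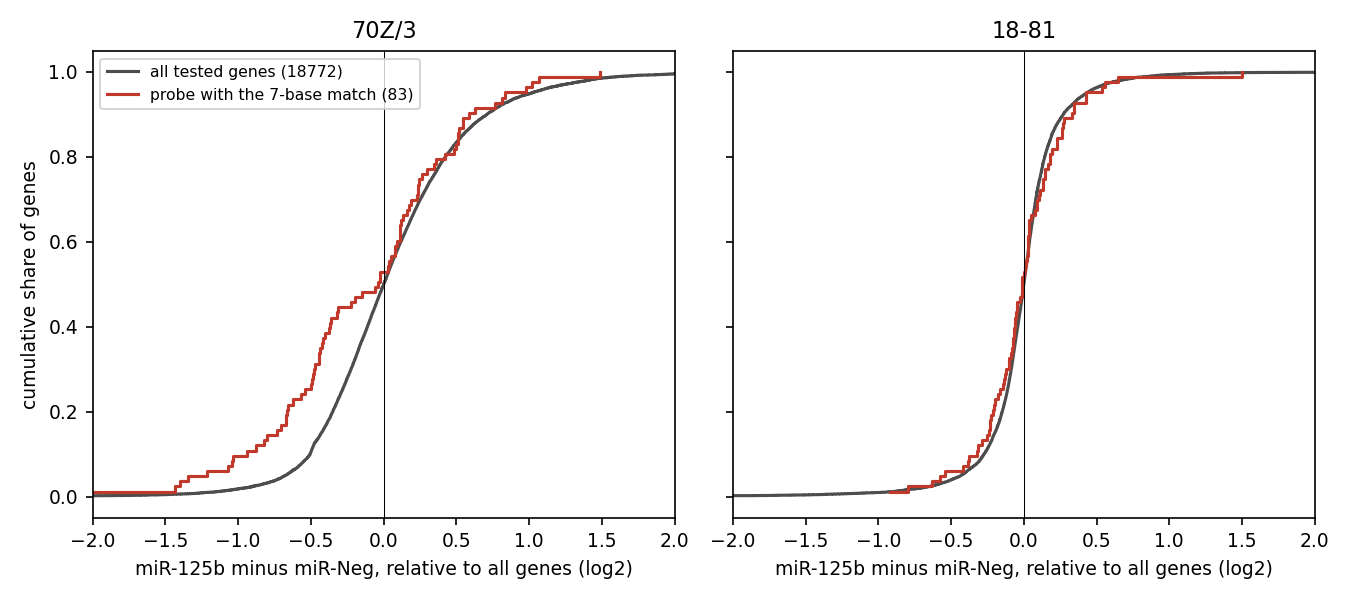
Cumulative share of genes by their difference between miR-125b and miR-Neg (log2, relative to the median of all genes) in 70Z/3 (left) and '18-81' (right). The red step line holds the 83 genes whose probe has the seed match and the grey line all 18772 genes. In 70Z/3 the red line lies above the grey one at the left, with 25.3% against 10.5% below −0.5, and the lines meet near 0.

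Some of the genes with the match and the more negative differences are described here, chosen after their values were seen. Ppat, which catalyses the committed step of purine synthesis, was at 2.75 and 4.22 in miR-Neg and at 1.72 and 2.18 in miR-125b (−1.53 ± 0.54; adjusted p = 0.0498 in the 4-array fit with the replicate block, limma). Pop5, a protein subunit of ribonucleases P and MRP, was at 6.47 and 7.59 against 5.27 and 6.09 (−1.35 ± 0.47). In both genes the dim array held the highest value of the 4, as in Ptpn18. Cyb561d2, a membrane reductase, was at −0.52 and −1.83 in the pairs, and Mtfp1, which acts in mitochondrial fission, at −0.86 and −1.28. The tRNA-processing enzyme Elac2 was at −0.76 and −1.11, the lysosomal transporter gene Slc46a3 at −1.43 and −0.47 and the transmembrane gene Tmem268 at −0.93 and −0.80. The peroxisomal oxidase Pipox was at −0.80 in each pair. In '18-81' the 2-pair mean of these 8 genes ran from −0.17 (Ppat) to 0.20 (Cyb561d2).

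Of 35 tested genes reported elsewhere as miR-125b targets, 22 lay on the lower side of all genes, and the median of the list was −0.17 (−0.33 in pair 1 and 0.05 in pair 2). At an unadjusted p of 0.05, 4 were lower (all genes 3.09%) and 0 higher (all genes 2.79%). None of the 4 arrays detected 3 members, Erbb3, Lifr and Vdr, and the median of the 32 detected on both arrays of a group was −0.11. Besides Abtb1, the B-lineage transcription factor Arid3a (Bright) was at 2.44 and 2.29 in miR-Neg and at 0.81 and 1.19 in miR-125b (−1.37 ± 0.28; a second probe gave −1.56). Irf4, a transcription factor of pre-B and plasma cells, was at 2.91 and 2.81 against 2.07 and 1.53 (−1.06 ± 0.31), and Trp53inp1, a stress-induced partner of p53, at −1.53 and −0.84 in the pairs with a second probe at −0.39. For Arid3a and Irf4 the arrays of a group agreed within 0.6 log2 units and the dim array was not apart. The apoptosis effector Bak1 was at −0.10 ± 0.28 and is above 0 under quantile normalization and cyclic loess (0.14 and 0.15). The plasma cell repressor Prdm1 was at −0.39 ± 0.36 and Trp53, which encodes p53, at 0.63 ± 0.93, with control arrays at 2.92 and 1.49.

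Promoters were searched on both strands for GAAA, any 2 bases and GAAA again, the core of the element that interferon-activated factors bind. RefSeq promoters of 300 bases (GRCm38.p6) were matched for 10074 tested genes, of which 3.78% hold the motif, and over all 27025 promoters the share was 3.99%. Of 21 matched genes of the interferon list 11 hold it (52.4%). Among the genes 2-fold higher in both pairs without that list, 8 of 75 hold it, and among those 2-fold lower 1 of 63 (1.59%). The 8 genes were Extl1, Gm12250, Ifi206, Ifi213, Ifitm3, Mmp13, Nav1 and Tgtp2. Of these, only Ifitm3 and Tgtp2 were well above background on every array of both groups. Gm12250 was so on no array, and with normexp background its difference was −0.21. Extl1, Ifi213, Mmp13 and Nav1 were undetected in miR-Neg, and Ifi206 was detected there on 1 array. All 8 were named after their values were seen. Ifi206, Ifi213, Ifitm3, Gm12250 and Tgtp2 are interferon-induced genes that the list does not contain, which leaves Extl1, Mmp13 and Nav1. The promoters of Tgtp2 (chr11:49064163-49064462, minus strand) and Mmp13 (chr9:7272264-7272563, plus strand) are shown, the first of an interferon-induced gene and the second of a collagenase, with the motif, on either strand, in capitals.
Tgtp2: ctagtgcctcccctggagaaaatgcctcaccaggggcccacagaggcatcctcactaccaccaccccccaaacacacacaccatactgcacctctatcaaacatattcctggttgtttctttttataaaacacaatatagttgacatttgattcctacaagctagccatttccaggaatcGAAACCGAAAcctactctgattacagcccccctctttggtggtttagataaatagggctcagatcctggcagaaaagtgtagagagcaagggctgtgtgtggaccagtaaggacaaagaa
Mmp13: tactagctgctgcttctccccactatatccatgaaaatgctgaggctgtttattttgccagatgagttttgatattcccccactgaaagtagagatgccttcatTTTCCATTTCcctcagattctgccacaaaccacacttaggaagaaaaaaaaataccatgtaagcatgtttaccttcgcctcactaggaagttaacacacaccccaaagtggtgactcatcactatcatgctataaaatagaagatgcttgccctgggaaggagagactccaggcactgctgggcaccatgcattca

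The gene lists are described by counts and by their median difference relative to the median of all genes, first over both pairs and then in pair 1 and pair 2. Of all genes, 33.3% lay above that median in both pairs and 33.3% below it in both. The interferon-induced genes, given here only as a yardstick, had 30 of 30 members above it and a median of 1.50 (0.80 and 2.13). Of these, 19 were well above background on both miR-Neg arrays, and the median was 0.65 without miR-Neg replicate 2 and 2.21 without miR-Neg replicate 1. No other list of more than 2 tested members was as far from the other genes.

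Replication-dependent histone genes, whose messengers are made in S phase to package new DNA, had the lowest median among the larger lists. Of 41 tested genes 34 lay below all genes, 31 of them in both pairs (75.6%), by a median of −0.63 (−0.87 and −0.57). There were 11 members 2-fold lower in both pairs (0.916% of all genes), and 10 passed in the 4-array fit with the replicate block (0.559% of all genes). H4f16 was at 5.86 and 6.86 in miR-Neg and at 4.35 and 4.98 in miR-125b (−1.69 ± 0.49), and H4c4 at 7.51 and 8.42 against 6.00 and 6.78 (−1.58 ± 0.50). H2ac21 was at −1.65 and −2.23 in the pairs, H2bc18 at −1.68 and −1.52 and H4c14 at −1.45 and −1.48, with a second H4c14 probe at −0.90. In each of these genes the dim array had the highest value of the 4. The bright H2A genes H2ac12, H2ac10 and H2ac22 were lower by less, at −0.67, −0.62 and −0.68, and at the other end H2ac18 was at −0.09 and 1.42. Histone genes share long identical stretches, so single members are uncertain. Without miR-Neg replicate 2 the median was −0.27, and without miR-125b replicate 1 it was −0.24 with 24 of 41 below all genes. Leaving out miR-Neg replicate 1 gave −1.09 and leaving out miR-125b replicate 2 gave −1.24. In '18-81' the list was at 0.14 (0.00 and 0.26).

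The DNA replication genes, the enzymes and clamps of the fork, lay in the same direction with smaller values. Of 46 tested genes 36 were below all genes, 25 in both pairs, by a median of −0.23 (−0.12 and −0.41), and 5 had an unadjusted p under 0.05, all lower (all genes 3.09%). The flap nuclease Fen1 was at 6.02 and 6.94 in miR-Neg and at 4.95 and 5.32 in miR-125b (−1.35 ± 0.44). Dut, which keeps uracil out of DNA, was at −0.63 and −1.29 in the pairs, the clamp loader subunit Rfc5 at −0.56 and −1.36 and the clamp Pcna at −0.54 and −1.11. The mitosis and spindle genes had 39 of 57 below (−0.10, with −0.12 and −0.16 in the pairs). The cohesion regulator Cdca5 was at −0.63 and −0.81 and the kinetochore protein Spc25 at −0.62 and −0.89. Cyclin Ccnb1 was at −0.50 and −1.07, and its other probes had mean differences of −0.23 and −0.41.

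Lists of abundant housekeeping genes had negative medians, larger in pair 2 than in pair 1. The ribosomal protein genes had 75 of 76 members below all genes, 72 in both pairs, by a median of −0.32 (−0.26 and −0.35). The oxidative phosphorylation genes had 71 of 75 below (−0.36; −0.17 and −0.53) and the mitochondrial ribosome genes 51 of 59 (−0.30; −0.03 and −0.55). The proteasome genes had 26 of 31 below (−0.30; −0.02 and −0.55), the splicing factor genes 29 of 37 (−0.26; 0.00 and −0.47) and the translation initiation and elongation genes 25 of 40 (−0.10; −0.01 and −0.25). In these 6 lists 0 genes passed after adjustment (limma) and 1 had an unadjusted p under 0.05. Examples were Rpl22 at −0.49 and −0.86 (second probe −0.44 and 0.17) and Uqcrq of respiratory complex III at −0.57 and −0.73 (second probe −0.39 and −0.62). Psmb5 of the proteasome was at −0.32 and −1.04 (second probe 0.04 and −0.86). The splicing regulator Srsf7 was at −0.33 and −1.61 (second probe −0.09 and −1.34).

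Brightness moved with this pattern. Among the 3755 brightest genes, which hold 75 of the 76 ribosomal and 72 of the 75 oxidative phosphorylation genes, the median difference was −0.17 in pair 1 and −0.48 in pair 2, against −0.07 and 0.01 among the 3755 dimmest, and the dim array lay 0.55 above its replicate. After quantile normalization and cyclic loess, which level the arrays at each intensity, the ribosomal median was −0.01 in each case. The translation genes were then at 0.05 and 0.04, above all genes. The median of the oxidative phosphorylation genes was −0.14 and −0.18, and that of the histone genes −0.55 and −0.54. Without miR-Neg replicate 2 the mitochondrial ribosome genes were at 0.03 and the proteasome genes at −0.03.

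Antigen presentation and inflammatory lists had higher medians in pair 2 than in pair 1. The MHC class II list had 11 of 15 tested genes above (0.49; −0.06 and 0.88), and no array of 70Z/3 detected H2-Ea or H2-DMb2. H2-DMa, which loads peptides, was at −0.33 and −0.33 in miR-Neg and at 0.58 and 0.70 in miR-125b (0.97 ± 0.27), and the class II chain H2-Eb1 at −1.68 and −1.75 against −0.88 and −0.13 (1.21 ± 0.32). Both genes had close control arrays, unlike the list as a whole. The invariant chain Cd74 was above background on 1 of the 2 miR-Neg arrays, and H2-Aa on 1 of the 4 arrays. Without miR-Neg replicate 2 the list median was 0.01. The MHC class I processing genes had 12 of 18 above, with 4 of them above in both pairs (22.2%, against 33.3% of all genes). Their median was 0.19 (−0.09 and 0.53; −0.05 without the dim array).

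Of the NF-kappaB pathway genes 14 of 24 were above (0.36; 0.06 and 0.46; −0.08 without the dim array), with the apoptosis inhibitor Birc3 at 0.55 and 1.07. Its 3 members with an unadjusted p under 0.05 were lower (all genes 3.09%), among them the adaptors Traf2 (−0.67 and −1.04, second probe −0.02) and Traf3 (−1.09 and −0.39). Chemokine and cytokine genes had 19 of 22 above (0.42; 0.10 and 0.65). The monocyte attractant Ccl2 was at −3.71 and −2.60 in miR-Neg and at −0.94 and −2.14 in miR-125b (1.61 ± 0.49), so its larger difference was that of pair 1. Cxcl10, a chemokine that interferon induces, was at 0.95 and 1.50 in the pairs and Tgfb1, a growth-restraining cytokine, at 0.88 and 1.48. The immediate-early and MAP kinase feedback genes had 16 of 27 above (0.38; −0.02 and 0.69), with the AP-1 subunits Fos at 0.47 and 0.75 and Junb at 0.45 and 1.02.

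Among B-lineage genes, single regulators differed while the lists stayed near all genes. The B-lineage transcription factor genes had 16 of 33 above (−0.02; −0.17 and 0.17). The helix-loop-helix inhibitor Id3 was at −0.61 and 0.95 in miR-Neg and at −1.54 and −1.79 in miR-125b (−1.83 ± 0.53), and its relative Id2 at 0.39 and 0.35 against 1.25 and 1.60 (1.05 ± 0.51). These 2 inhibitors of E proteins therefore lay on opposite sides. The repressor Gfi1 was at 1.90 and 1.79 against 0.91 and 0.34 (−1.22 ± 0.40). The pre-B receptor and signalling genes had 17 of 31 above (0.03; −0.14 and 0.21), with the kinase Lyn at −1.19 and −0.65 and the phospholipase Plcg1 at 0.63 and 0.97. The V(D)J recombination genes had 13 of 18 above (0.19; 0.08 and 0.09), and in this list Dntt, which adds nucleotides at antibody gene joints, was at 0.93 and 2.02 and the DNA-bending protein Hmgb2 at −0.68 and −1.13.

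B-cell surface receptor genes had 13 of 30 above (−0.04; −0.02 and −0.02), with large values on both sides. The activation marker Cd69 was at 3.39 and 2.97 in miR-Neg and at 4.10 and 4.91 in miR-125b (1.32 ± 0.40). The chemokine receptor Ccr7, which guides lymphocytes to lymph nodes, was at 4.17 and 4.01 against 3.07 and 2.83 (−1.14 ± 0.61). In Ccr7 arrays of a group lay within 0.3 log2 units and the groups were over 0.9 apart, while the model's SE takes in the wider spread of '18-81'.

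Metabolic and stress lists lay on both sides of all genes. Glycolysis and hypoxia genes had 20 of 28 above, 17 in both pairs, or 60.7% (0.27; 0.15 and 0.35), with hexokinase Hk1 at 0.68 and 0.79 (second probe 0.83). Cholesterol synthesis genes had 16 of 23 above (0.26; 0.06 and 0.55), lysosome genes 17 of 34 (0.01; 0.11 and 0.09) and autophagy genes 24 of 33 (0.13; 0.01 and 0.28). In the lysosome list the sialidase Neu1 was at −0.72 and −1.02 in the pairs. The ATF4 and amino acid response genes had 19 of 27 above (0.21; −0.09 and 0.45), and Nupr1, a stress-induced chromatin protein, was at 2.22 and 0.58 in miR-Neg against 2.52 and 3.84, so that its value rests on pair 2. Endoplasmic reticulum chaperone genes had 8 of 22 above (−0.18; 0.04 and −0.32), with the oxidase Ero1a at 0.78 and 2.84. Heat shock genes had 3 of 16 above (−0.18; −0.03 and −0.38) and oxidative stress response genes 7 of 19 (−0.16; −0.02 and −0.20).

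The p53 target genes had 14 of 23 above (0.21; 0.18 and 0.10), with the cell cycle inhibitor Cdkn1a at 2.42 and 1.76 in miR-Neg and at 3.20 and 3.43 in miR-125b (1.22 ± 0.34; second probe 1.04). The Bcl2 family genes had 7 of 14 above (−0.01; 0.09 and 0.10). The microRNA pathway genes had 14 of 23 above (0.20; 0.06 and 0.28), in which the decapping enzyme Dcp2 was at −0.71 and −1.23 and the helicase Mov10, a partner of Argonaute, at 0.55 and 0.82. The DNA methylation and Polycomb genes had 13 of 25 above (0.05; −0.13 and 0.16). The methyltransferase Dnmt3b was well above background on miR-Neg replicate 1 alone of the 4 arrays, so no fold is given for it. The integrin, matrix and actin genes had 16 of 30 above (0.12; 0.12 and 0.23), Sparc, Mmp13 and Myl4 among them, and S100a6, a calcium-binding protein of growing cells, at 0.82 and 1.76. The Rab GTPase genes had 23 of 41 above (0.04; 0.02 and 0.06). Rab7b, a late endosomal GTPase of myeloid cells, was at −2.65 in miR-Neg replicate 1 and at 0.48 and 2.06 in miR-125b. In miR-Neg replicate 2 it was not well above background.

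For many of these lists the median depended on the dim array. Without miR-Neg replicate 2 it was on the other side of all genes for the ATF4 and amino acid response genes (−0.04), the endoplasmic reticulum chaperone genes (0.05), the pre-B receptor and signalling genes (−0.15) and the DNA methylation and Polycomb genes (−0.06). It was −0.0012 for autophagy, −0.0018 for the Rab GTPase genes and 0.0025 for the p53 targets, and so level with all genes. The cholesterol synthesis genes were at 0.05, the V(D)J recombination genes at 0.04, the microRNA pathway genes at 0.03, the immediate-early genes at 0.19 and the chemokine and cytokine genes at 0.25. Among lists below all genes, oxidative phosphorylation was at −0.07, the ribosomal protein genes at −0.10, the splicing factors at −0.09, the translation genes at −0.03, the heat shock genes at −0.08 and the oxidative stress genes at −0.10. In the other direction, the mitosis and spindle genes were at −0.18, the B-lineage transcription factors at −0.11 and the lysosome genes at 0.17, each farther from all genes.

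**Figure D5:**
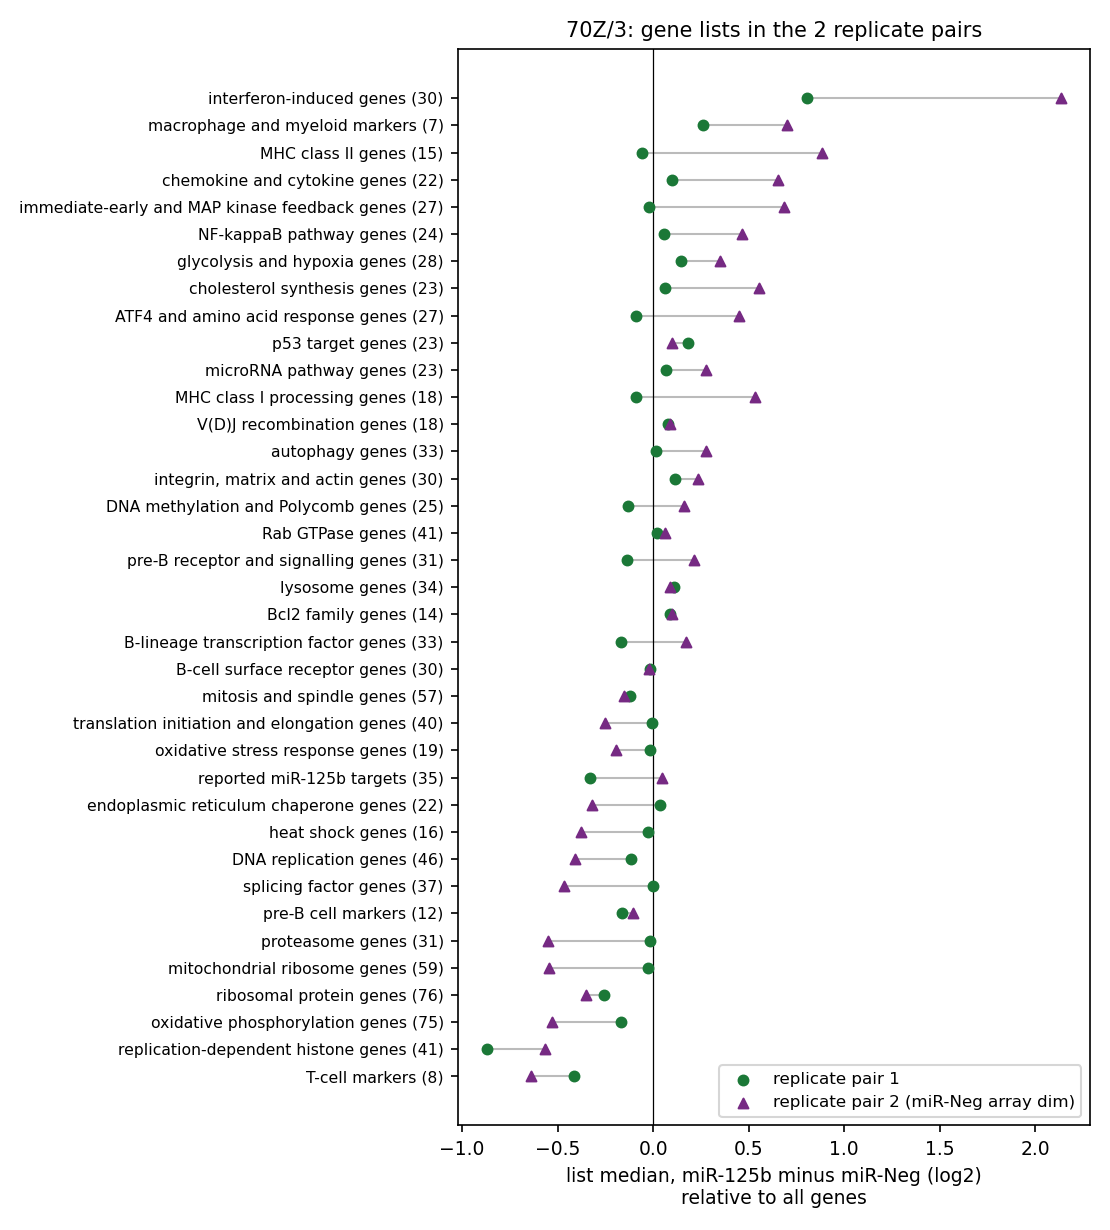
Median difference between miR-125b and miR-Neg of each gene list with at least 5 tested members, relative to all genes (log2), in pair 1 (green circles) and pair 2 (purple triangles), ordered by the median over both pairs. Numbers in brackets are tested members. The lists run from T-cell markers and histone genes at the bottom to interferon-induced genes at 0.80 and 2.13 at the top, and most triangles lie farther from 0 than the circles.

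Most listed markers of the lineage were present on every array. Of 14 listed pre-B cell markers 12 were tested, and testing already required signal above background in some group. The 12 were well above background on the 4 arrays, with Vpreb1, a surrogate light chain, at 8.34 to 9.82. Their median lay at −0.29 (−0.16 and −0.10, with 5 above all genes). Of 8 tested T-cell markers 7 lay below all genes (−0.72; −0.42 and −0.64; −0.27 without miR-Neg replicate 2), but none of the 4 arrays detected Cd2, Cd3g or Cd8b1. Genes undetected on all 4 arrays had a median difference of −0.61, which the scaling to the 75th percentile gives to values near the scanner's floor. Of the 5 measured T-cell genes, Cd3d was at −0.59 and −1.95, the kinase Lck at −0.35 and −1.92 and Cd4 at 0.08 and −0.18. In bulk RNA, fewer cells of a type and less RNA per cell cannot be told apart.

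Of 7 tested macrophage and myeloid markers 4 lay above all genes (0.77; 0.26 and 0.70) and 2 below in both pairs. The median was −0.04 among the 5 members above background on all 4 arrays, relative to all genes so detected, and 0.16 without miR-Neg replicate 2. Lysozyme, Lyz2, was at −4.27 and −2.88 in miR-125b and not well above background in miR-Neg (at least 1.6-fold higher), and Mpo was likewise detected in miR-125b only. Itgam was at 0.18 and 1.09, Elane at 0.10 and −0.49 and Ctss at −0.61 and −0.78. The log2 of the summed intensity of the 7 genes was 5.37 and 5.60 in miR-Neg and 5.08 and 5.20 in miR-125b, so the list was higher by its median and lower by its sum, and its part in the values of Mrc1, Clec7a and Mpeg1 was not tested. Of 7 listed stromal markers only Sparc and Vim (−0.38) were tested, with a median of 2.26 (2.41 and 2.12). Of 6 listed erythroid markers only Epor and Klf1 were tested (−0.14, with 0.06 and −0.32 in the pairs and 0.05 without miR-Neg replicate 2).

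The size of many differences rested on the dim array, and so did the direction of some. Of 701 genes at least 2-fold higher on average, 256 (36.5%) were still 2-fold higher without miR-Neg replicate 2 and 653 still above 0, and of 496 at least 2-fold lower, 203 (40.9%) and 488. Without miR-Neg replicate 1 the shares still 2-fold apart were 91.6% and 87.9%. Of the genes 2-fold apart in both pairs, 112 of 136 higher (82.4%) and 103 of 172 lower (59.9%) remained 2-fold apart without the dim array, all in the same direction. These genes were chosen by a 2-fold difference in pair 1, whose control array is the one left in that fit. Their direction and much of the share kept therefore follow from the choice. Of those with an unadjusted p under 0.05, 192 of 524 and 176 of 580 kept it. In total 500 genes had an unadjusted p under 0.05 without miR-Neg replicate 2, against 3408 without miR-Neg replicate 1. Without the dim array the miR-Neg group is 1 array, and the model takes its spread from the groups with 2. E230029C05Rik was then at −7.07 and Zfp799 at −5.37, both above background on miR-Neg replicate 1 alone of the 4 arrays.

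The genes on which the dim array lay farthest from the rest show what such values look like. The stress transcription factor Ddit3 (CHOP) was at 2.92 and 0.20 in miR-Neg and at 2.92 and 3.90 in miR-125b, so that pair 1 differed by 0.00 and pair 2 by 3.69. The adaptor Gab3 was at 4.01 and 0.92 against 4.51 and 4.31. The long nuclear RNAs had the same pattern: Malat1 was at 0.50 and −2.40 against 0.41 and 0.26, and Neat1 at 1.06 and −2.0 against 0.61 and 0.47. For these genes 3 arrays lay together and miR-Neg replicate 2 alone was low. Without it Malat1 was at −0.17 and Neat1 at −0.52. Gm4759 was at 1.53 and −1.69 against 1.96 and 1.07, and the antiviral gene Oasl2 at −0.18 and −2.83 against 0.83 and 0.43, still higher in pair 1 by 1.01.

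On the other side, the dim array was high for ND6, a mitochondrially encoded subunit of respiratory complex I, at −0.47 and 2.26 in miR-Neg and −1.15 and −0.33 in miR-125b. Another complex I gene, Ndufb1, was at 0.30 and 2.13 against 0.29 and 0.09, and the cell cycle regulator Rgcc at −0.79 and 2.05 against −0.38 and 0.24. In pair 1 these differed by −0.68, −0.01 and 0.40. The receptor Il1rl1 (ST2) was at −2.12 and −0.19 against −2.92 and −2.41 and the membrane protein gene Lrrn3 at 2.73 and 4.65 against 2.10 and 1.18, with pair 1 differences of −0.79 and −0.62.

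The effect in 70Z/3 differed from that in '18-81' for 0 of 18772 genes after adjustment (limma; 606 at an unadjusted p of 0.05, 3.23%). Among genes that differed in 70Z/3, the test of the difference between lines gave its smallest p-values in limma for the intergenic transcripts on chromosome 9 (unadjusted p = 7.475e-05) and chromosome 4 (0.0001549, limma). Sparc followed (unadjusted p = 0.000243, limma), then Mlana, a melanocyte protein gene detected in 70Z/3 after miR-125b alone, at least 1.43-fold higher (unadjusted p = 0.000464, limma). Other genes were on this list for their values in '18-81': Cfap300 was at −2.72 and −3.48 there and Srpx2 at −2.82 and −2.19, against 0.09 and 0.61 and −0.15 and 0.03 in 70Z/3. No array of 70Z/3 detected Olfr1496, C530025M09Rik or LOC100048891.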

How the data were processed

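RNA of 8 samples was labelled with Cy3 and hybridised to 1-colour Agilent mouse arrays, 1 per sample. Per the file headers, the authors read the scans with Agilent Feature Extraction 10.7.3.1, whose deposited intensity values are background-subtracted, and probe positions refer to mm9. The deposited series table, used as an alternative, holds intensity values whose columns share one maximum, and the method behind that scaling was not given in the sources used here.

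Control spots and outlier spots (140 to 203 per array) were left out, spots of a probe averaged, and log2 values taken relative to the array's 75th percentile. No spot was saturated. Probes were named from the RefSeq table of GRCm38.p6, by accession (26527), symbol (3786) or older symbol (714), and for 24654 the name in the file was kept. Testing was limited to genes whose signal exceeded background clearly on both arrays of some group, each through its brightest probe, which left 18772 genes, 13697 with a RefSeq symbol. limma 3.58.1 in R 4.3.3 fitted 4 group means to 8 arrays (prior degrees of freedom 3.83), with Benjamini-Hochberg adjustment at 0.05. The fit was also run on simulated data with independent noise. Those data held no effect of the replicate number and no array that stood apart, so they cannot show how the fit handles either. SE is the model's, with 2 arrays per group, whose number limits the precision. "At least" folds set the brighter group against the lowest level well above background on each array of the other group. Where an undetected value was higher than that level, the value itself was used.

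The replicate number was treated as a pairing, since the design names 2 independent experiments, and same-numbered arrays deviated together from their group means (r = 0.374 to 0.648 over 6 pairs of groups). The slide row follows the same numbers, so row and experiment cannot be told apart. The fit without the block is the one reported.

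The comparison and the 39 gene lists were chosen with earlier results of these data known. Named genes were, per direction, the 15 with the largest smaller-of-both pair differences among named genes above background on all 4 arrays (predicted genes and the interferon list left out), up to 8 detected in only 1 group, up to 4 per list, 5 for the difference between lines, 6 on which miR-Neg replicate 2 lay farthest out, and 6 fixed genes. Some list members given as further examples were chosen after their values were seen. A scaling to the spike-ins, list medians over genes detected in 70Z/3 and the seed match alternatives were added after seeing the data. Some genes that the rule selects are not reported here.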

Additional observations from a re-analysis of the deposited data

Results flagged for a closer look

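For 11 gene lists the median difference between miR-125b and miR-Neg lay on one side of all genes in both pairs of 70Z/3 and on the other side in both pairs of '18-81'. The difference between the lines was not tested for any of them, and all 4 groups share only 2 replicate numbers. The interferon-induced genes lay 1.54 higher in 70Z/3 than in '18-81' on the log2 scale, the NF-kappaB pathway genes 0.421 and the glycolysis and hypoxia genes 0.293. The oxidative phosphorylation genes lay at −0.429, the mitochondrial ribosome genes at −0.326, the DNA replication genes at −0.272 and the heat shock genes at −0.191. Among marker lists, the stromal markers, of which only Sparc and Vim were tested, lay at 3.01 and the macrophage and myeloid markers at 0.743. The pre-B cell markers lay at −0.376 and the T-cell markers at −0.846. The '18-81' medians behind several of these were within 0.1 log2 units of 0.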

How the results depend on the processing

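With the 75th percentile, all 8 arrays and no block, 0 genes passed after adjustment (limma), 1104 had an unadjusted p under 0.05 and 308 were 2-fold apart in both pairs. The count after adjustment was 1 with normexp background, 1 with a replicate block within each line, 212 in the 4 arrays of 70Z/3 with the replicate block and 328, all higher, with spike-in scaling. It ran from 0 to 2 over the fits that leave out 1 array. The unadjusted count was 2387 without an intensity filter, 3920 with the replicate block, 3992 with the block within each line, 2929 in the 4 arrays with the block and 10396 with spike-in scaling, and from 500 to 3408 with 1 array left out. The 2-fold count was 104 with normexp background, 684 without a filter, 160 for genes above background on all 4 arrays and 11003 with spike-in scaling, which put the median of all genes at 1.35. The difference between lines gave 3 genes with spike-in scaling and from 0 to 0 with 1 array left out. The 2-fold count needs both pairs and was not run for blocks or left-out arrays, and the difference between lines not for the 4 arrays alone. Of 151 genes named here, 133 kept their direction under every alternative run and 18 reversed under some. With 1 array left out, Malat1 ran from −0.17 to 2.73, Neat1 from −0.52 to 2.54, Rgcc from −2.12 to 0.717, Trp53 from −0.079 to 1.35, Prdm1 from −0.80 to 0.022, Bak1 from −0.22 to 0.016, Cd4 from −0.176 to 0.081, Cd74 from −0.155 to 1.31, Elane from −0.535 to 0.142, Gm4759 from −0.020 to 3.21, H2ac18 from −0.382 to 1.72, Itgam from −0.022 to 1.30, Klf1 from −0.185 to 0.380 and Srpx2 from −0.173 to 0.053. After quantile normalization Bak1 was at 0.14, Cd2 at 0.00033, Cd4 at 0.020, Vdr at 0.013 and Srpx2 at 0.060, and after cyclic loess Bak1 at 0.15, Cd4 at 0.080 and Srpx2 at 0.047. In the authors' series table Bak1 was at 0.14, Cd2 at 0.0017, Cd4 at 0.025, Vdr at 0.016 and Srpx2 at 0.050. With normexp background H2-Aa was at −0.12, Cd74 at −0.085, Gm12250 at −0.21, Klf1 at −0.033 and Cd4 at 0.0089. With spike-in scaling relative to the median of all genes Bak1 was at 0.031, Cd4 at 0.085 and Srpx2 at 0.072. Apart from values given above, the cause of these changes was not tested. Signals near background limit what the miR-Neg arrays show of dim genes.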
